A study of Homo sapiens with 6 samples.

Results

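Transcripts of the proteasome were followed in SUM44 and LCCTam, a pair of human lines of invasive lobular breast carcinoma. The genes were taken by name, 39 in all, covering the subunits of the constitutive 26S proteasome, its other activators, an inhibitor and the chaperones that carry a PSMD symbol. Where several probe sets were annotated to a gene and to no other, the brightest by its mean over the 6 arrays was used, which gave 34 of the 39 genes, out of 11963 genes tested. PSMA6 and PSME2 were found only on probe sets annotated to another gene as well, PSMC5, PSMD7 and PSMD13 were not named in the annotation used here, and these 5 were not analysed.

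The 3 SUM44 cultures, whose tamoxifen phenotype is given as sensitive, received 500 nM 4-hydroxytamoxifen (4HT) for 24 hours. 4HT is an active metabolite of tamoxifen, an antagonist of the estrogen receptor in breast cells. The 3 LCCTam cultures, given as resistant, had been kept from 4HT for 14 days. Both are labelled positive for the estrogen and progesterone receptors and were grown in SFIH medium on Ham's F12. Cell line and drug exposure differ together between the groups and cannot be told apart, and each group is 1 line. The comparison addresses how transcript levels in the resistant line differ from those in the sensitive line under the drug.

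The proteasome is the main protease of the cytosol and nucleus, and it degrades proteins tagged with ubiquitin, among them the estrogen receptor itself. Its 20S core is a barrel of alpha subunits, which form the gated entrance, and beta subunits, of which PSMB5, PSMB6 and PSMB7 cut peptide bonds. The 19S particle caps the core, where PSMC ATPases unfold the substrate and PSMD subunits bind, position and strip off ubiquitin. Because the subunits assemble in fixed proportions, their genes are known to be induced together by the transcription factor NFE2L1 when the protease is inhibited.

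All values below are log2 expression levels or log2 differences, LCCTam minus SUM44, so 1 unit is a 2-fold change. Levels of different probe sets are not comparable, and only differences are set side by side between genes. A gene is called where the moderated test of limma gave an adjusted p under 0.05 over all genes tested. The 3 SUM44 arrays correlated at 0.994 to 0.995 over genes, the 3 LCCTam arrays at 0.958 to 0.987, and LCCTam replicate 1 lay nearer the SUM44 arrays (0.972 to 0.974) than LCCTam replicate 3 (0.923 to 0.941). Poly-A spike-in controls averaged 6.82, 6.74 and 6.42 in SUM44 replicates 1, 2 and 3 and 6.80, 7.11 and 7.37 in LCCTam replicates 1, 2 and 3. The ACTB control level at the 3′ end minus that at the 5′ end was 0.08, -0.05 and 0.21 in LCCTam replicates 1, 2 and 3 and -0.11, -0.05 and -0.11 in SUM44. That of GAPDH was 0.0021, 0.11 and 0.0055 in LCCTam and -0.06, 0.0014 and 0.20 in SUM44. The spike-in and ACTB values were thus highest in LCCTam replicate 3, and that of GAPDH in SUM44 replicate 3. The part of RNA quality or labelling in the proteasome differences was not tested. Of 8 luminal markers, KRT8 (-1.09), KRT18 (-0.42), KRT19 (-0.69) and ESR1 (-1.40) were called lower in LCCTam and GATA3 (1.11) higher, all at 9.65 or more on every array, and FOXA1, EPCAM and PGR were not called. Their part in the proteasome differences was not tested. PGR, the progesterone receptor of the label, lay at 3.89 to 4.34, below the lower quartile of gene means (5.93). Of 14 measured markers of basal cells, fibroblasts, leukocytes and endothelium, none exceeded 8.18 on any array, where the upper quartile of gene means was 8.36. Below the lower quartile on every array were 1 of 3 basal, 2 of 5 fibroblast, 0 of 3 leukocyte and 1 of 3 endothelial markers. These levels alone do not show that such cells were absent. CDH1, expected to be low in the lobular type, was at 6.35 to 7.17 and was not called. In bulk RNA, fewer cells with a transcript and less transcript per cell cannot be told apart.

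Proteasome genes were more often lower than higher in LCCTam, but far from uniformly so. Of the 34 measured, 9 fell, none rose and 25 were not called, where 6.6% of all genes were called lower, 9.18% higher and 15.8% either way. The 9 were PSMA1, PSMB1, PSMC1, PSMD1, PSMD6, PSMD11, PSMD14, PSME4 and PSMF1, with differences from -0.42 to -1.64. An unadjusted p under 0.05 was reached by 17 members, each of them lower, against 14.1% of all genes lower and 31.4% in either direction. The median difference was -0.43 over the members and 0.08 over all genes. Every LCCTam array lay below every SUM44 array for 15 members (13.5% of all genes) and above for 2, PSMA7 and PSMD9 (21.8% of all genes). A mean difference of at least 2-fold downward was seen in 7 members (4.48% of all genes) and upward in none (1.91%). Of these 7, PSMC1, PSMD14 and PSME4 were called and PSMA3, PSMA4, PSMC2 and PSMC6 were not. Without LCCTam replicate 3 only PSME4 was at least 2-fold lower, at -1.24 (2.61% of all genes). Leaving out SUM44 replicate 1, 2 or 3 gave 7, 9 or 6 such members (4.03%, 5.45% and 4.19%), LCCTam replicate 1 gave 11 (7.37%) and LCCTam replicate 2 gave 9 (4.08%).

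**Figure D1:**
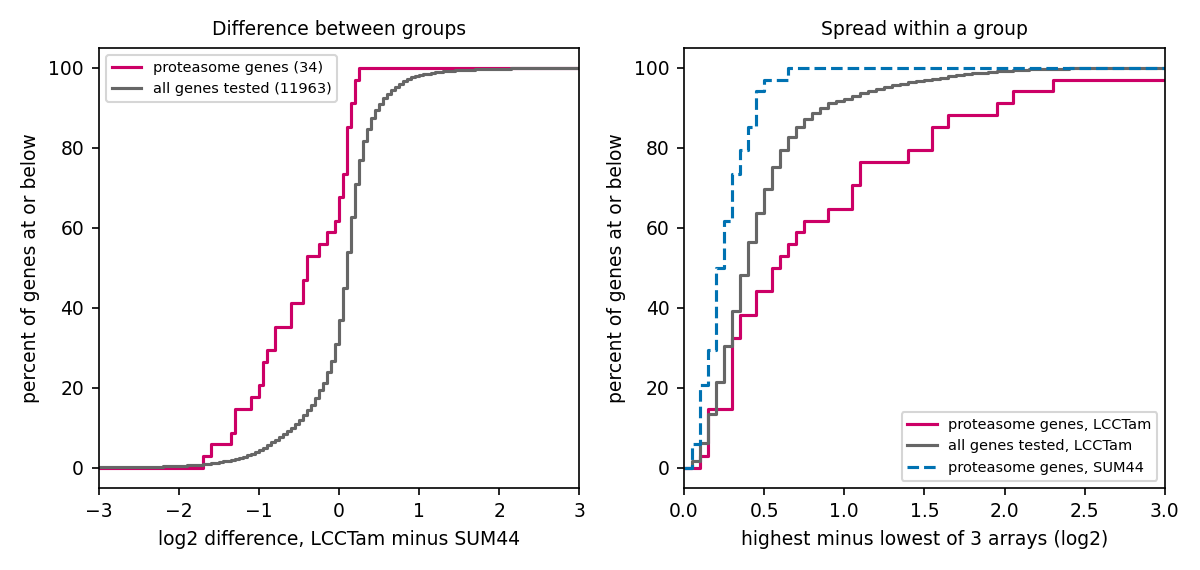
Cumulative share of genes (percent, vertical axes) by log2 difference between LCCTam and SUM44 (left) and by the log2 gap between the highest and lowest of the 3 arrays in a group (right), for the 34 proteasome genes and all 11963 genes tested. The curve of proteasome genes lies left of that of all genes in the left plot (medians -0.43 and 0.08), and in the right plot the LCCTam curve of proteasome genes lies mostly below that of all genes (medians 0.54 and 0.36).

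The number called depended on which arrays were in the fit. It was 0, 1 and 0 without SUM44 replicates 1, 2 and 3 (2.63%, 3.3% and 2.53% of all genes called lower), and 17, 0 and 11 without LCCTam replicates 1, 2 and 3 (16.8%, 2.73% and 6.16%), each one lower. With an unadjusted p under 0.05 these fits of limma gave 13, 14, 13, 19, 14 and 16 members, each lower, where 9.15%, 12%, 9.5%, 19.3%, 9.71% and 12.4% of all genes were lower at that p. The median difference stayed between -0.36 and -0.46. No member was called at an adjusted p under 0.01 (2.51% of all genes lower). With all arrays and other settings, the members called lower were 9 with every probe set its own unit (5.96%), 6 with probe sets averaged per gene (6.93%), 8 with an intensity trend and robust fitting (6.19%), 8 after cyclic loess (6.8%), 9 after median centring (6.55%), 10 among genes above the median level (11.6%), 9 among genes at 6 or more in a group (9.46%) and 20 with array weights (22.6%). The values nearest the threshold were 0.0381 (PSMD14) and 0.0435 (PSMD6) inside and 0.0677 (PSMA5) and 0.0687 (PSME1) outside.

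Within the alpha ring of the core, 1 of 6 measured subunits fell and 5 were not called, with a median difference of -0.82. PSMA1 stood at 12.23, 11.96 and 12.25 in SUM44 replicates 1, 2 and 3 and at 11.66, 11.30 and 11.00 in LCCTam replicates 1, 2 and 3. Its LCCTam arrays all lay below the SUM44 arrays, 1.77-fold lower in the mean (-0.83 ± 0.18 SE, adjusted p = 0.0214), and its dimmer probe sets gave -0.75 and -0.75. The probe sets used for PSMA1, PSMA7, PSMD4 and PSME3, and that of NFE2L1 below, are of a type that can bind related transcripts.

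PSMA3, PSMA4 and PSMA2 showed mean differences of about that size or more that were not called, and their LCCTam arrays lay far apart. PSMA3 was at 11.01, 10.63 and 11.06 in SUM44 and at 10.64, 9.53 and 8.60 in LCCTam replicates 1, 2 and 3 (-1.31 ± 0.45, adjusted p = 0.0933). LCCTam replicate 1 of PSMA3 sat within the SUM44 range, and replicate 3 was 2.04 below replicate 1. PSMA4 was at 9.89, 9.45 and 9.75 in SUM44 and at 9.70, 8.89 and 7.45 in LCCTam (-1.02 ± 0.50, adjusted p = 0.212), again with replicate 1 inside the SUM44 range. PSMA2 was at 11.35, 11.19 and 11.29 in SUM44 and at 11.02, 10.71 and 9.63 in LCCTam (-0.82 ± 0.32, adjusted p = 0.129), and its arrays did not overlap. PSMA5 was closer together, at 10.77, 10.76 and 10.68 against 10.41, 10.45 and 10.01 (-0.45 ± 0.14, adjusted p = 0.0677), with all LCCTam arrays below. Of the 6 measured alpha subunits PSMA7 was the only one with a mean difference above 0, at 11.61, 11.57 and 11.35 against 11.68, 11.75 and 11.62 (0.17 ± 0.11, adjusted p = 0.347).

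The beta ring, which holds the catalytic sites, differed little apart from PSMB1 and PSMB5. Of 7 measured subunits 1 fell and 6 were not called, with a median difference of 0.06. PSMB1, a structural subunit, was at 12.20, 12.07 and 12.16 in SUM44 and at 11.71, 11.77 and 11.70 in LCCTam, so the arrays of each group lay close together and apart from the other group. The difference was 1.34-fold (-0.42 ± 0.10, adjusted p = 0.0254). A dimmer probe set of PSMB1 gave -0.26 and was not called (adjusted p = 0.105 among all probe sets), a very dim one gave 0.03, and the call was lost when its probe sets were averaged.

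PSMB5, the chymotrypsin-like subunit and main target of proteasome inhibitors, was at 11.36, 11.30 and 11.32 in SUM44 and at 10.30, 10.57 and 11.16 in LCCTam replicates 1, 2 and 3 (-0.65 ± 0.21, adjusted p = 0.0757). All 3 LCCTam arrays were below SUM44, but here replicate 1 was the lowest and replicate 3 the highest, unlike in the alpha ring. Without LCCTam replicate 3 PSMB5 was called lower. PSMB6, the caspase-like subunit, was at 10.71, 10.62 and 10.69 against 10.41, 10.65 and 10.70 (-0.09 ± 0.11, adjusted p = 0.64). PSMB7, the trypsin-like subunit, was at 10.78, 10.57 and 10.64 against 10.48, 10.72 and 10.99 (0.06 ± 0.15, adjusted p = 0.801). Neither catalytic subunit separated the groups. PSMB2 (0.17 ± 0.14), PSMB3 (0.08 ± 0.13) and PSMB4 (0.06 ± 0.11), structural subunits, had overlapping arrays as well and were not called.

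**Figure D2:**
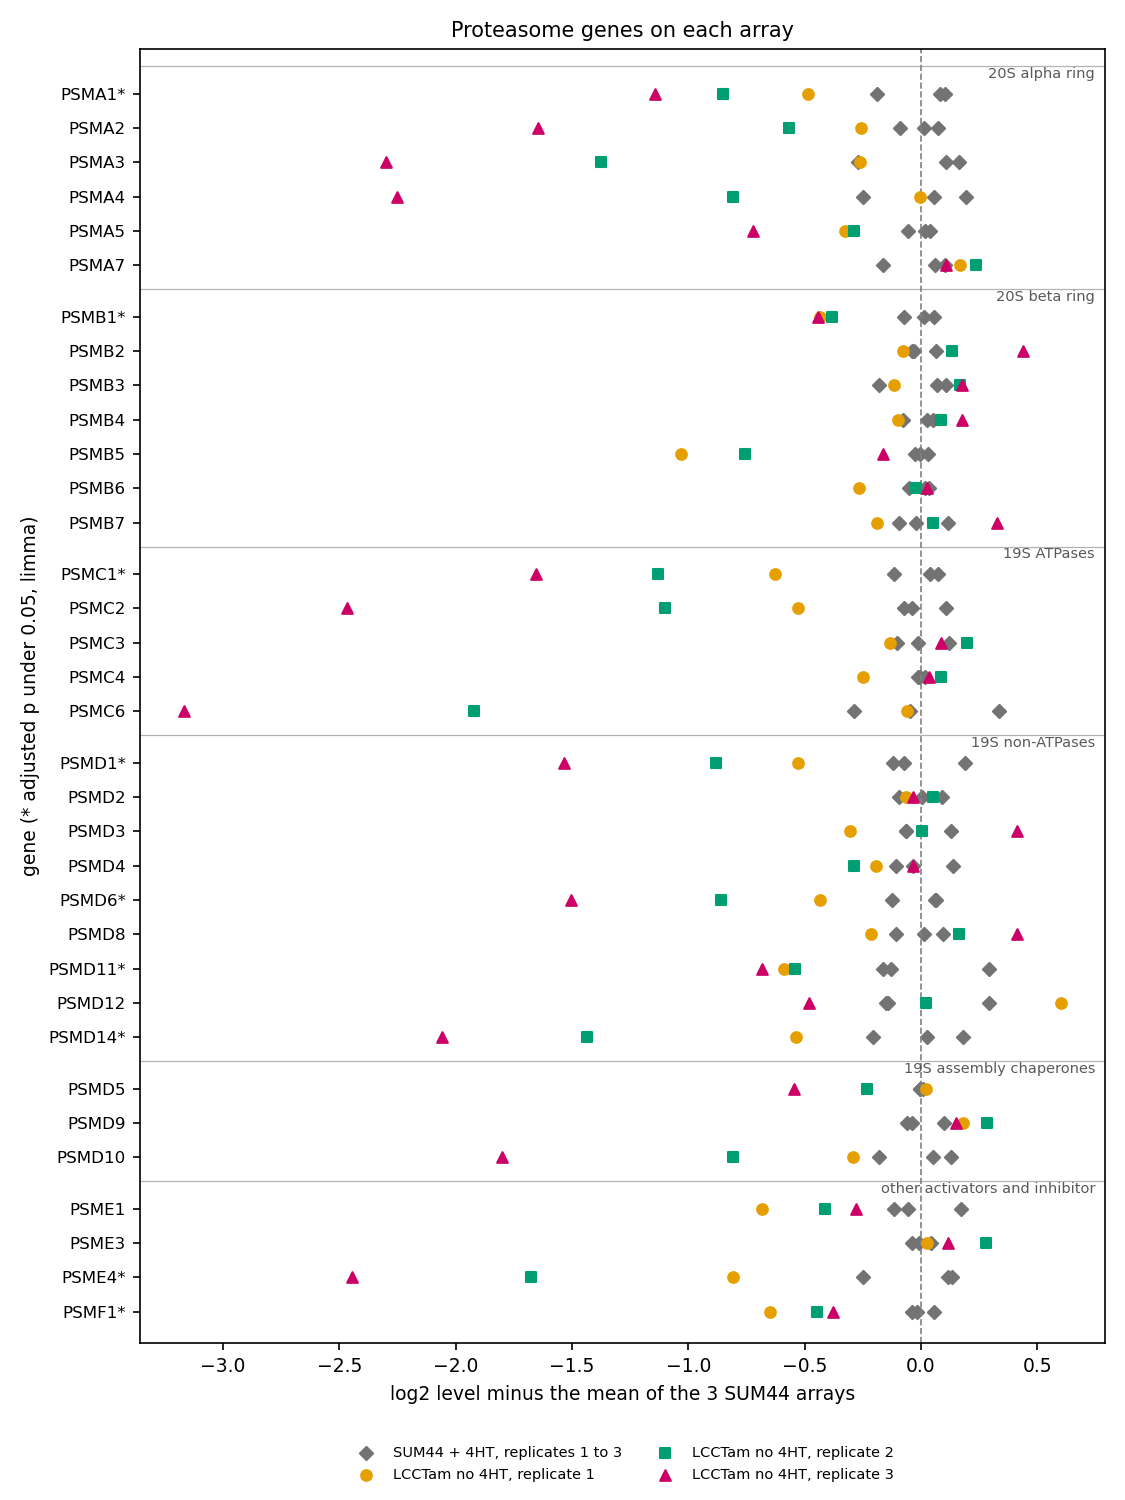
Level of each of the 34 measured proteasome genes on each array, as the log2 level minus the mean of the 3 SUM44 arrays (horizontal axis), grouped by role, with diamonds for SUM44 and a circle, square and triangle for LCCTam replicates 1, 2 and 3. The SUM44 points lie close to 0, while the LCCTam points of PSMA3, PSMA4, PSMC2, PSMC6, PSMD14 and PSME4 lie at -0.81 or higher in replicate 1 and at -2.06 or lower in replicate 3, and those of most beta subunits stay near 0.

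The ATPases of the 19S particle divided into 3 members that lay more than 2-fold lower in the mean and 2 near 0. Without LCCTam replicate 3 none of the 3 was 2-fold lower, with PSMC1 at -0.88, PSMC2 at -0.81 and PSMC6 at -0.99. PSMC1 was at 11.51, 11.32 and 11.47 in SUM44 and at 10.81, 10.30 and 9.78 in LCCTam replicates 1, 2 and 3. It was 2.2-fold lower (-1.14 ± 0.24, adjusted p = 0.019), with no overlap, and was the only one of 5 measured ATPases to be called. PSMC2 was at 11.00, 10.82 and 10.85 against 10.36, 9.79 and 8.42 (-1.37 ± 0.43, adjusted p = 0.0735). Its arrays did not overlap, a dimmer probe set gave -0.76, and it was called without LCCTam replicate 1 or without LCCTam replicate 3.

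PSMC6 had the lowest mean difference and the widest spread of all members. It was at 9.10, 8.48 and 8.72 in SUM44 and at 8.71, 6.84 and 5.60 in LCCTam replicates 1, 2 and 3 (-1.72 ± 0.68, adjusted p = 0.132). LCCTam replicate 1 lay within the SUM44 range and replicate 3 was 3.11 below it, under the lower quartile of gene means. In contrast PSMC3 was at 10.54, 10.31 and 10.40 against 10.29, 10.62 and 10.51 (0.05 ± 0.12, adjusted p = 0.81). PSMC4 was at 9.58, 9.59 and 9.61 against 9.35, 9.68 and 9.63 (-0.04 ± 0.12, adjusted p = 0.837). These 2 ATPases sit in the same ring as PSMC1, PSMC2 and PSMC6, and their groups overlapped.

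Among the non-ATPase subunits of the 19S particle with a PSMD symbol, 4 of 9 measured fell, none rose and 5 were not called. PSMD14, the metalloprotease that removes ubiquitin chains from a substrate, was at 10.75, 10.52 and 10.91 in SUM44 and at 10.19, 9.30 and 8.67 in LCCTam replicates 1, 2 and 3. It was 2.54-fold lower (-1.34 ± 0.34, adjusted p = 0.0381), with every LCCTam array below SUM44, and was not called with an intensity trend and robust fitting or after cyclic loess. PSMD1, a large scaffold of the base of the particle, was at 9.52, 9.48 and 9.78 against 9.07, 8.71 and 8.06. It was 1.97-fold lower (-0.98 ± 0.24, adjusted p = 0.0343), and its dimmer probe set gave -1.26 (adjusted p = 0.0289 among all probe sets).

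PSMD6 and PSMD11 are neighbouring scaffold subunits of the lid, which holds PSMD14. PSMD6 was at 11.24, 11.05 and 11.23 in SUM44 and at 10.74, 10.32 and 9.67 in LCCTam, 1.91-fold lower (-0.93 ± 0.25, adjusted p = 0.0435), a call lost after cyclic loess. PSMD11 was at 9.81, 9.39 and 9.35 against 8.93, 8.98 and 8.84, 1.52-fold lower (-0.60 ± 0.14, adjusted p = 0.029). Its LCCTam arrays lay within 0.14 of each other, unlike those of PSMD6, which spanned 1.07. A dim probe set of PSMD11, under the lower quartile of gene means, gave -0.08, and the call was lost when both were averaged.

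The remaining lid and base subunits were not called. PSMD12, another lid scaffold, was at 8.54, 8.10 and 8.09 in SUM44 and at 8.85, 8.27 and 7.77 in LCCTam (0.05 ± 0.27, adjusted p = 0.918). Its LCCTam replicate 1 was the highest and replicate 3 the lowest of the 6 arrays. PSMD2, the other large scaffold of the base, was at 9.95, 9.86 and 9.76 against 9.79, 9.91 and 9.82 (-0.02 ± 0.10, adjusted p = 0.927), beside the fall of its partner PSMD1. PSMD3 (0.04 ± 0.18) and PSMD8 (0.12 ± 0.17), lid subunits, were lowest in LCCTam replicate 1 and highest in LCCTam replicate 3 among the 6 arrays. PSMD4, a ubiquitin receptor, differed by -0.17 ± 0.12 (adjusted p = 0.367), and its 3 dimmer probe sets gave -0.19, -0.25 and 0.10.

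The chaperones PSMD5, PSMD9 and PSMD10 help to assemble the base and leave the finished particle. None of the 3 was called. PSMD10, also known as gankyrin, was at 10.40, 10.09 and 10.33 in SUM44 and at 9.98, 9.47 and 8.47 in LCCTam replicates 1, 2 and 3 (-0.97 ± 0.34, adjusted p = 0.102), without overlap. PSMD9 was at 10.10, 9.96 and 9.94 against 10.18, 10.29 and 10.15 (0.21 ± 0.10, adjusted p = 0.216), with every LCCTam array above SUM44, as for PSMA7. PSMD5 was at 8.87, 8.85 and 8.85 against 8.88, 8.63 and 8.31 (-0.25 ± 0.15, adjusted p = 0.302).

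Of the other activators and the inhibitor, 2 of 4 measured fell. PSME4 encodes PA200, a nuclear activator that binds the core without the 19S particle. It was at 9.45, 9.07 and 9.44 in SUM44 and at 8.52, 7.65 and 6.88 in LCCTam replicates 1, 2 and 3, 3.12-fold lower (-1.64 ± 0.37, adjusted p = 0.0241). Its dimmer probe sets gave -1.05 (adjusted p = 0.0674 among all probe sets) and -1.64 (adjusted p = 0.0127). Among the called members this was the largest difference, and no LCCTam array overlapped SUM44.

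PSMF1, known as PI31, binds the core and was named as its inhibitor. It was at 9.94, 10.01 and 9.92 in SUM44 and at 9.31, 9.51 and 9.58 in LCCTam, 1.41-fold lower (-0.49 ± 0.11, adjusted p = 0.0234), with its LCCTam replicate 1 the lowest array. A dimmer probe set of PSMF1 gave -0.16, and the call was lost when both were averaged. PSME1, a subunit of the interferon-induced activator PA28, was at 11.51, 11.74 and 11.45 against 10.88, 11.16 and 11.29 (-0.46 ± 0.14, adjusted p = 0.0687), below SUM44 on every LCCTam array. PSME3, the nuclear homologue of PSME1, was at 9.39, 9.47 and 9.41 against 9.45, 9.70 and 9.54 (0.14 ± 0.11, adjusted p = 0.413), and its 3 other probe sets gave -0.14, -0.03 and 0.29.

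**Figure D3:**
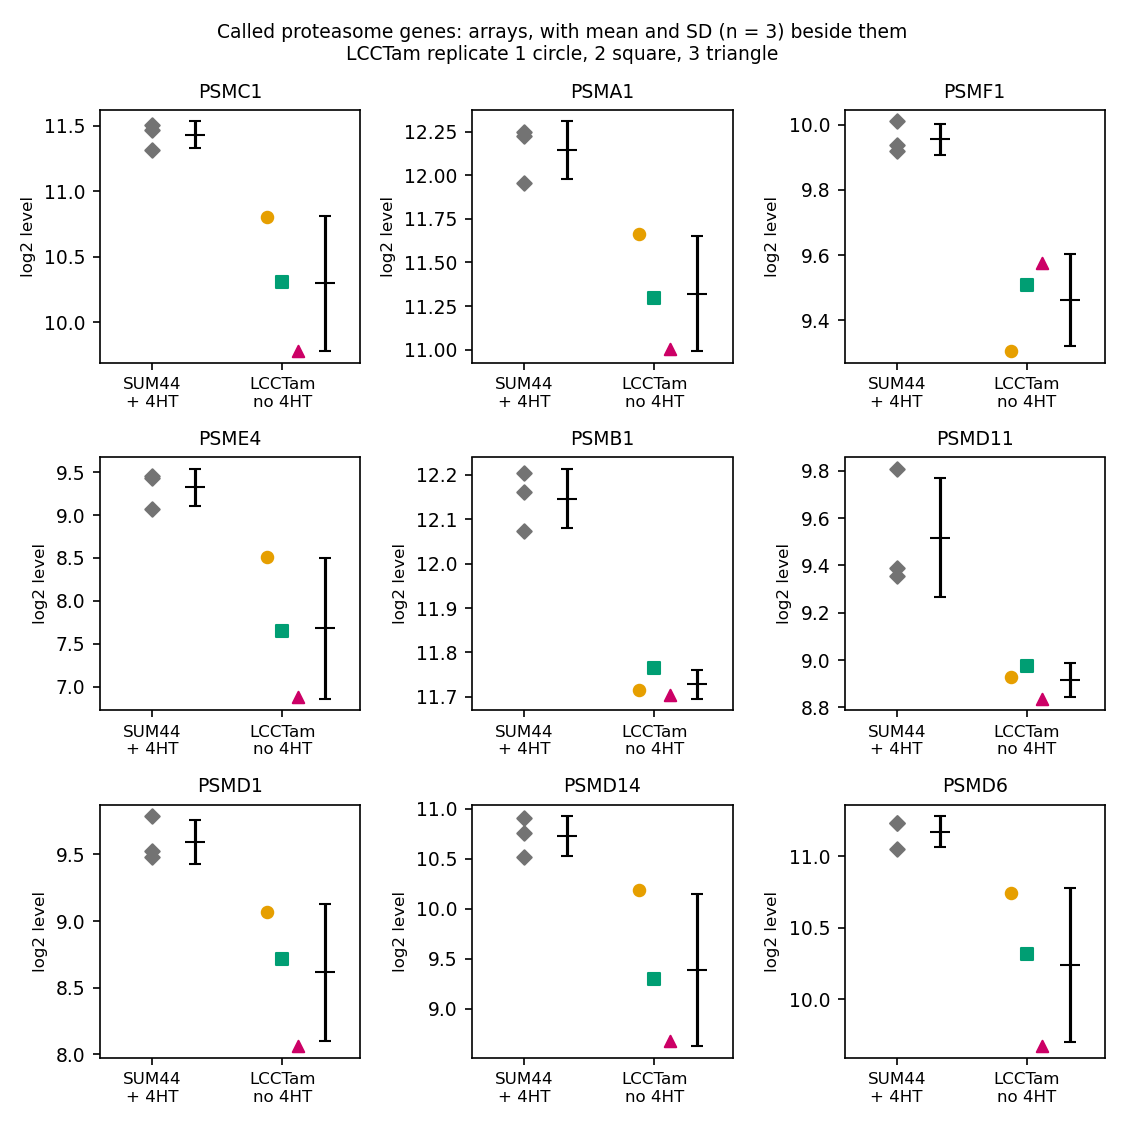
Log2 level on each array (points, vertical axes, which do not start at 0 and differ between panels) of the 9 called proteasome genes in SUM44 with 4HT and LCCTam without 4HT, with the mean and SD of each group (n = 3) beside the points. In every panel the LCCTam points lie below the SUM44 points, close together for PSMB1, PSMD11 and PSMF1 and spread over 1.01 to 1.64 for PSMC1, PSMD1, PSMD6, PSMD14 and PSME4.

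Each of the 9 calls held without LCCTam replicate 1, and each was lost without some other array. Without SUM44 replicates 1 or 3 or LCCTam replicate 2 all 9 were lost, at adjusted p from 0.0629 to 0.147. Without SUM44 replicate 2 only PSMA1 held (0.0497) and the others stood at 0.0597 to 0.103. Without LCCTam replicate 3 the call of PSMD11 was lost (0.0516). Over all alternatives, with array weights giving the lowest, the adjusted p of PSMC1 ran from 5.5e-06 to 0.0823, that of PSME4 from 5.61e-06 to 0.0981 and that of PSMD11 from 0.000648 to 0.093. The differences of these 9 changed by at most 1.44 times when an array was left out, in PSMD6. Among members that were not called and differed by 0.3 or more in either direction, those of PSMA2 (-0.41), PSMA3 (-0.82), PSMA4 (-0.40), PSMC2 (-0.81), PSMC6 (-0.99) and PSMD10 (-0.55) moved by more than 1.5 times without LCCTam replicate 3. Smaller differences were not included in this list.

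The LCCTam arrays differed more among themselves in proteasome transcripts than the SUM44 arrays did. In 12 of 34 members the LCCTam arrays lay at least 2-fold apart (7.69% of all genes), and in none did the SUM44 arrays (0.117% of all genes). The 12 were PSMA2, PSMA3, PSMA4, PSMC1, PSMC2, PSMC6, PSMD1, PSMD6, PSMD10, PSMD12, PSMD14 and PSME4. In all 12 the highest LCCTam array was replicate 1 and the lowest replicate 3. The share of this order among all genes with LCCTam arrays at least 2-fold apart was not counted. Over all genes tested, LCCTam replicates 1 and 3 were also the least correlated LCCTam arrays (0.958), so this order may not be particular to proteasome genes. Over the 34 members replicate 3 was the lowest LCCTam array in 19 (27.8% of all genes). The median SD of members was 0.27 in LCCTam and 0.11 in SUM44, against 0.19 and 0.11 over all genes.

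Set against the SUM44 mean, the median of members was -0.26, -0.33 and -0.41 in LCCTam replicates 1, 2 and 3, and that of all genes -0.01, 0.09 and 0.16. By role the contrast between the arrays differed in size and direction. The alpha ring had medians of -0.26, -0.69 and -1.39 in LCCTam replicates 1, 2 and 3 and the ATPases -0.25, -1.10 and -1.65. The beta ring had -0.19, 0.05 and 0.18, so replicate 3 was its highest array and the lowest one of the alpha ring and the ATPases. The PSMD non-ATPases had -0.30, -0.29 and -0.48 and the assembly chaperones 0.02, -0.23 and -0.55. For the other activators and the inhibitor the medians were -0.67, -0.43 and -0.33, lowest in replicate 1. The spike-in levels given above also differed between these arrays, lowest in LCCTam replicate 1 and highest in replicate 3. Among the LCCTam arrays the ACTB difference between ends was highest in replicate 3 and that of GAPDH in replicate 2. The part of these controls in the differences between arrays was not tested.

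Of the 23 dimmer probe sets of 16 members, 16 had the sign of the one used. Called members had 9 of them, and 8 of these were lower and 4 called among all probe sets. Averaging the probe sets of each gene gave 6 called members (PSMA1, PSMC1, PSMD1, PSMD6, PSMD14 and PSME4) and a median of -0.27.

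A promoter stretch was looked at because NFE2L1 and its relative NFE2L2 are known to act on proteasome genes through the antioxidant response element. The 250 bases before the start of 34 of the 39 genes were matched by symbol in RefSeq (GRCh38.p14), 29 of them among the measured genes. The core letters TGACNNNGC were searched on both strands, and 10 of the 34 genes held them in at least 1 annotated promoter (29.4%), beside 16% of 9563 tested genes with a promoter. Sequences of 4 of the 8 measured holders follow, 2 with lower mean levels in LCCTam (PSME4 and PSMA4) and 2 near 0 (PSMB3 and PSMD3), chosen after their values were seen, 5′ to 3′ with the match in capitals.
PSME4, chr2:53970994-53971243, minus strand: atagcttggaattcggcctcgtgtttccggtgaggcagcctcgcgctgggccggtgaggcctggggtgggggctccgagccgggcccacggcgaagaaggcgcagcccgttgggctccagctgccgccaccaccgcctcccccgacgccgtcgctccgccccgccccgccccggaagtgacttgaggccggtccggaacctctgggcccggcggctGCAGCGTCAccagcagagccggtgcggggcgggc
PSMA4, chr15:78540536-78540785, plus strand, 1 of several annotated starts: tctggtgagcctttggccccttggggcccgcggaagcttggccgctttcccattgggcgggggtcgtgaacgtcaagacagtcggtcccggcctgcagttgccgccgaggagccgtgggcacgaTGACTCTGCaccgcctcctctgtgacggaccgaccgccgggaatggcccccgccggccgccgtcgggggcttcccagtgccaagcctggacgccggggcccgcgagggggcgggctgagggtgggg
PSMB3, chr17:38752491-38752740, plus strand: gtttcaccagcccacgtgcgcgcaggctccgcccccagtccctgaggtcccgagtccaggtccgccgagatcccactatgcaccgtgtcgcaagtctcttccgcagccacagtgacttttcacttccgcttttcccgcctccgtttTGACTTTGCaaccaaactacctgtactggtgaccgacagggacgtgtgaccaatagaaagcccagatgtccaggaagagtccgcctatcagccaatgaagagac
PSMD3, chr17:39980557-39980806, plus strand: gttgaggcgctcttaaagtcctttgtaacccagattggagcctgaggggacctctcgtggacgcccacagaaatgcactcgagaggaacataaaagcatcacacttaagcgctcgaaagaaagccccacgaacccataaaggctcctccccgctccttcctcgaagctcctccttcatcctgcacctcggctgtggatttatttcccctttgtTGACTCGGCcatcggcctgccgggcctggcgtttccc

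The match in PSME4 is on the reverse strand and begins 34 bases before the start, and those in PSMA4, PSMB3 and PSMD3 are on the forward strand and begin 126, 104 and 37 bases before it. The 8 measured holders were PSMA4, PSMB3, PSMD3, PSMD5, PSMD9, PSMD12, PSME1 and PSME4, and their differences ran from -1.64 to 0.21 with a median of -0.11. One of the 8 was called, and 7 of the 21 measured genes without the letters, whose median was -0.65. The letters CCAAT were in 16 of the 34 (47.1%, beside 42.4% of tested genes), the GC box GGGCGG in 22 (64.7%, beside 67.6%), the ETS letters CCGGAAG in 9 (26.5%, beside 15.2%) and the E-box CACGTG in 3 (8.82%, beside 10.7%). The median difference of measured holders was -0.74 for CCAAT, -0.60 for the GC box, -0.71 for the ETS letters and 0.14 for the E-box, whose holders were PSMB3, PSMD9 and PSME3. That of measured genes without the letters was -0.46, -0.37, -0.46 and -0.63 in the same order. Called lower were 2 of 14 CCAAT holders and 6 of 15 without, 6 of 17 GC box holders and 2 of 12 without, 3 of 8 ETS holders and 5 of 21 without, and 0 of 3 E-box holders and 8 of 26 without. Of all genes 6.6% were called lower, and their share with or without any of these letters was not counted. A link between letters and differences was not tested. Matches are letters in a window and not binding sites. The G and C content of these promoters had a median of 60.8% in 29 members and 63% over 9563 tested genes. Its Pearson correlation with the difference was -0.10 over the 29 members and 0.02 over tested genes, and its Spearman correlation -0.17 and 0.04.

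Other genes of the ubiquitin and proteasome system were a list of 40, of which 30 were measured. Of these 7 rose (9.18% of all genes), 1 fell (6.6%) and 22 were not called, with a median difference of 0.05. An unadjusted p under 0.05 in limma was reached by 16 (31.4% of all genes), of which 9 were lower (14.1%). Every LCCTam array lay below every SUM44 array for 7 (13.5% of all genes) and above for 8 (21.8%). The immunoproteasome subunits PSMB8, PSMB9 and PSMB10, which replace PSMB5, PSMB6 and PSMB7 in interferon-stimulated cells, all rose, and none of these counterparts was called. The difference between the sets was not tested. PSMB9 was at 6.34, 6.40 and 6.51 in SUM44 and at 7.60, 7.84 and 7.74 in LCCTam, 2.49-fold higher (1.31 ± 0.11, adjusted p = 0.000461). PSMB10 was at 6.41, 6.61 and 6.57 against 7.09, 7.57 and 7.60 (0.89 ± 0.16, adjusted p = 0.00956), and PSMB8 at 7.74, 7.73 and 7.52 against 8.03, 8.31 and 8.57 (0.64 ± 0.15, adjusted p = 0.0305). For all 3 every LCCTam array lay above SUM44. PSMB9 was called with each array left out, PSMB10 was lost without SUM44 replicate 1 (0.0516) or LCCTam replicate 2 (0.0527), and PSMB8 without any SUM44 array or LCCTam replicate 2 (0.0873 to 0.127).

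Assembly factors moved in both directions. POMP, the maturation factor of the core, was at 10.94, 10.86 and 10.92 in SUM44 and at 10.45, 10.01 and 9.64 in LCCTam, 1.83-fold lower (-0.88 ± 0.20, adjusted p = 0.0235). FBXO7, an F-box protein that binds PSMF1, was at 8.83, 8.86 and 9.03 against 9.75, 9.94 and 10.12, 2.04-fold higher (1.03 ± 0.13, adjusted p = 0.00251), and was called with each array left out. PAAF1, an ATPase-binding assembly factor, was at 9.93, 9.89 and 9.78 against 10.33, 10.28 and 10.41 (0.47 ± 0.10, adjusted p = 0.0199). NPLOC4 and UFD1, the partners with which the ATPase VCP extracts ubiquitinated proteins, rose by 0.57 ± 0.15 (adjusted p = 0.0372) and 0.52 ± 0.13 (adjusted p = 0.034), and both calls were lost after cyclic loess. The calls of POMP, PAAF1, NPLOC4 and UFD1 were lost without any SUM44 array or LCCTam replicate 2 (adjusted p = 0.0674 to 0.136).

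Other proteins of the 19S particle or attached to it were not called in any of 7 cases. USP14, a deubiquitinase that trims chains at the particle, was at 10.08, 10.01 and 9.92 in SUM44 and at 10.05, 9.71 and 8.95 in LCCTam (-0.44 ± 0.26, adjusted p = 0.297). UCHL5, the other such enzyme, was at 9.13, 8.73 and 8.91 against 8.87, 8.46 and 6.93 (-0.84 ± 0.45, adjusted p = 0.253). For both, LCCTam replicate 1 lay among the SUM44 arrays and replicate 3 far below, the pattern of PSMA4 and PSMC6, and without replicate 3 the differences were -0.13 and -0.26. ADRM1, the receptor that docks UCHL5, went the other way, at 9.47, 9.46 and 9.57 against 9.56, 9.77 and 10.10 (0.31 ± 0.15, adjusted p = 0.209), and was 0.16 without LCCTam replicate 3. Without LCCTam replicate 1 all 3 were called, USP14 (-0.68) and UCHL5 (-1.23) lower and ADRM1 (0.43) higher. That fit called 22 of the 30 related genes and 4241 of 11963 genes tested, with 16.8% of all genes lower. NFE2L1 was at 9.35, 9.27 and 9.44 against 9.71, 9.31 and 9.60 (0.19 ± 0.13, adjusted p = 0.379), its dimmer probe sets gave 0.40 and 0.32, and its difference turned to -0.04 with array weights. NFE2L2 was at 7.78, 7.33 and 7.46 against 7.43, 6.17 and 6.13 (-0.95 ± 0.34, adjusted p = 0.106), with LCCTam replicate 1 inside the SUM44 range. In the limma fit without LCCTam replicate 1, NFE2L2 was called lower (-1.37, adjusted p = 0.00023) and NFE2L1 was not called (0.10, adjusted p = 0.559).

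**Figure D4:**
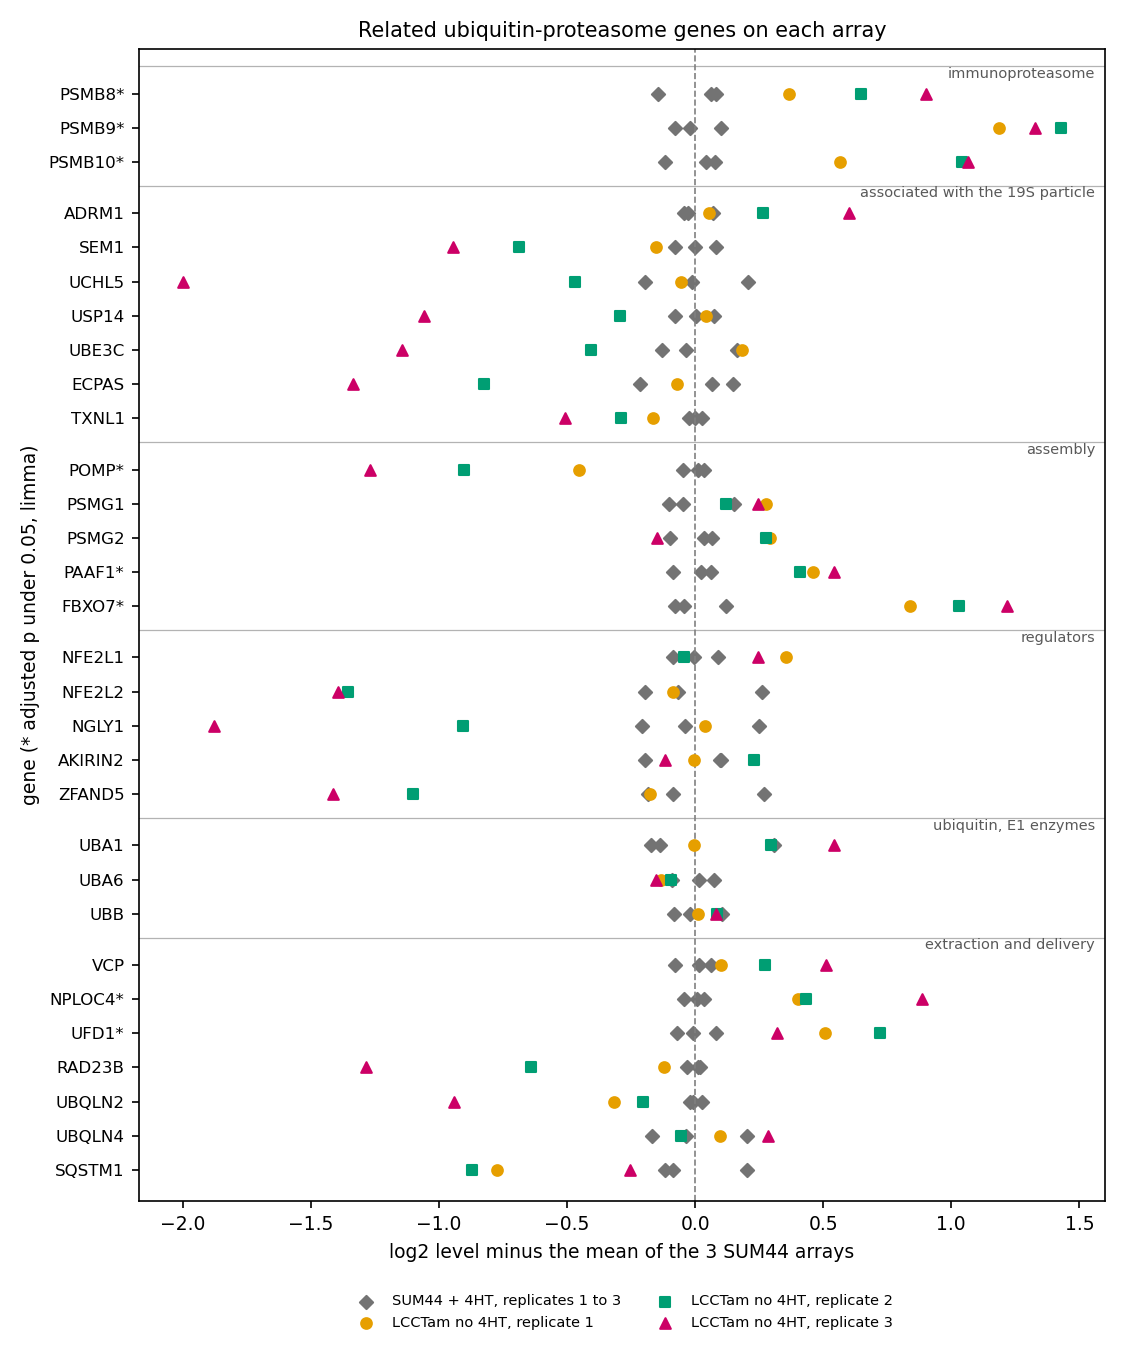
Level of each of 30 related ubiquitin and proteasome genes on each array, as the log2 level minus the mean of the 3 SUM44 arrays (horizontal axis), grouped by role, with diamonds for SUM44 and a circle, square and triangle for LCCTam replicates 1, 2 and 3. Of the called genes, PSMB8, PSMB9, PSMB10, PAAF1, FBXO7, NPLOC4 and UFD1 lie above SUM44 on every LCCTam array and POMP below. Of those not called, VCP lies above on every LCCTam array, and SEM1, TXNL1, UBA6, RAD23B, UBQLN2 and SQSTM1 lie below. UCHL5, USP14 and NFE2L2 lie at -0.09 to 0.04 in LCCTam replicate 1 and at -1.06 or lower in replicate 3.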

How the data were processed

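Total RNA of 6 cultures was labelled by the one-cycle Affymetrix protocol, per the labels' protocols. The deposited values are log2 levels that the authors made with RMA, as the series design text and processing notes state, per the labels, its version not given in the sources used here. RMA equalises the arrays, so a change shared by most genes would not be seen. Array medians ran from 6.70 to 6.77. No detection calls were used, so a dim probe set may hold background alone.

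Groups come from the sample titles, which call the arrays biological replicates. Nothing says how cultures were separated, so p-values cover only the spread among these 6 samples, which may be technical. Of 22283 probe sets 68 controls were left out, 19065 had 1 gene, 1043 several and 2107 none. Symbols were updated by gene ID for 19053 through RefSeq names of GRCh38.p14.

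Differences, SEs and two-sided p-values were fitted with limma 3.58.1 (lmFit, eBayes; R 4.3.3) and adjusted by Benjamini-Hochberg over 11963 genes. On simulated data of this comparison the fit recovered 33.0% of genes changed 1.5-fold, 72.2% at 2-fold and 94.9% at 4-fold, with 5.05% of calls false. The simulated noise was independent between arrays, with the same spread per gene in both groups, and 200 genes were changed. In the data the LCCTam arrays spread more than the SUM44 arrays and many members shared their order, so these rates may not hold for the calls here. Same-numbered arrays were not treated as pairs, since their deviations from group means correlated at 0.49, 0.35 and -0.05 over genes. Members, gene lists, motifs and tests were chosen with earlier results of these data known. Named with values were all called members, the 5 largest differences not called, PSMB5, PSMB6 and PSMB7, the called related genes, and PSMB8 to PSMB10, NFE2L1, NFE2L2, USP14, UCHL5 and ADRM1. Other members were named in addition, after their values were seen. Alternatives were other uses of probe sets, variance models, array weights, scalings, filters on dim genes, each array left out, a replicate block and an adjusted p under 0.01.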

Additional observations from a re-analysis of the deposited data

How the results depend on the processing

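The median of members stayed negative in every alternative run, between -0.27 (mean of a gene's probe sets) and -0.46, and was -0.33 with array weights. Called members numbered 6 to 10 with other uses of probe sets, an intensity trend, other scalings or filters on dim genes. Array weights, which did not converge and gave most weight to LCCTam replicate 2, called 24 members (20 lower and 4 higher), 25 related genes and 7021 genes in all. With every probe set as its own unit 3002 of 22215 were called. At an adjusted p under 0.01, 0 members, 3 related genes and 723 genes were called. With 1 array left out, called members ran from 0 to 17, related genes from 2 to 22 and all genes from 751 to 4241, and the median of members from -0.46 to -0.36. With the replicate number as a block, 10 members were called, PSMC2 in addition (adjusted p = 0.0442), 11 related genes, NFE2L2 among them (adjusted p = 0.0311), and 2152 genes in all. No member called with all arrays changed sign in any alternative. Differences near 0 did: PSMB4 (-0.0055) and PSMD12 (-0.046) with the mean of probe sets, PSMC4 (0.085), PSMD2 (0.057), PSMD3 (-0.0013) and NFE2L1 (-0.044) with array weights, PSMC3 (-0.015), PSMD3 (-0.11) and PSMD12 (-0.10) after cyclic loess, and with 1 array left out PSMB3 (range -0.013 to 0.17), PSMB4 (-0.0049 to 0.13), PSMB6 (-0.14 to 0.0025), PSMB7 (-0.068 to 0.19), PSMC3 (-0.022 to 0.14), PSMC4 (-0.11 to 0.061), PSMD2 (-0.065 to 0.029), PSMD3 (-0.15 to 0.21), PSMD8 (-0.026 to 0.29) and PSMD12 (-0.23 to 0.31). The cause of these changes was not tested. With 3 arrays in each group, precision is limited by their number.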
